A study of Sus scrofa with 26 samples.

Results

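The small heat shock proteins are a family of chaperones that work without ATP: they hold partly unfolded proteins and keep them from clumping until other chaperones refold them or the cell removes them. All members share the alpha-crystallin domain. HSPB1 (also called Hsp27) and CRYAB (alpha-B-crystallin) are classical targets of the heat shock transcription factor HSF1 and protect actin and intermediate filaments, HSPB6 and HSPB2 are best known from muscle, HSPB7 is a cardiac and skeletal muscle form, and HSPB8 works with the co-chaperone BAG3 to send damaged proteins to autophagy. Here their mRNA was examined in the subcutaneous adipose tissue (SCAT) of pigs. The rule that found the members used gene names and no measured value. All non-control probes whose symbol, accession or locus number names HSPB1, HSPB2, HSPB6, HSPB7, HSPB8 or CRYAB were taken, which gave 17 probes for 6 genes among 60305 probes on the array. All 17 were among the 44703 probes tested.

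RNA from 26 castrated male pigs was hybridised to 26 one-colour microarrays, 1 pig per array. The pigs were Creole, Large White (LW) or their cross (F1). The thermoneutral (TN) groups, at 24 °C, held 3 Creole, 4 F1 and 4 LW pigs. The heat stress (HS) groups held 5 pigs of each breed, at 30 °C in the labels and at 32 °C for 5 days in the text of the series. TN pigs were slaughtered before the room was warmed, so temperature, slaughter day and age cannot be told apart. Family, pen and slaughter day are not in the labels, and pigs that shared them were treated as independent.

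The arrays had between 41314 and 46185 probes well above background and no saturated spot. Correlations between arrays ranged from 0.974 to 0.993 within groups. All 8 tested adipocyte markers, led in brightness by FABP4 (a fatty acid carrier) and ADIPOQ (adiponectin), were well above background on all 26 arrays. Skeletal muscle markers were present too, and the array of Creole HS replicate 3 stood apart: its score over 27 muscle markers, the mean log2 deviation from the average array, was 2.49, the next highest score of the 26 arrays being 1.41. The same array was the highest of all 26 for CRYAB, HSPB2, HSPB7 and HSPB8, and values without it are given beside several of the results that it moved. In bulk tissue, fewer cells of a type and less RNA per cell cannot be told apart.

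Each member was read by at least 1 probe of 60 bases. HSPB8 had 8 probes, CRYAB 3, HSPB1 and HSPB6 2 each, and HSPB2 and HSPB7 1 each. Where a gene had several, the probe with the highest mean level stands for it. The probes that follow are shown because 3 of them hold a stretch that probes of HSPB1, HSPB6 and CRYAB share, in capitals, which matches the letters AANCACTTCNCNCCNGAGGA. The stretch is the run of 20 bases in which probes of HSPB1, HSPB6 and CRYAB had the most identical bases, 16, with N where they differ. In a search of both strands of all 60305 probes, 0.00497% held it, namely the 3 probes it came from and no other.
HSPB1, probe A_72_P679687: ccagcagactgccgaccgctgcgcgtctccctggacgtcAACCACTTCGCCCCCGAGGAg
CRYAB, probe O6250: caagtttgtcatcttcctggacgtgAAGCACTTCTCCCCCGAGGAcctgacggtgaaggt
HSPB6, probe O11519: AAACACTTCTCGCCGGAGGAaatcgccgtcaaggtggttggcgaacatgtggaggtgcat
HSPB1, probe A_72_P088101: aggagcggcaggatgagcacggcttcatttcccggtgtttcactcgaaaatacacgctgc

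The last of these, which lacks the shared stretch, stands for HSPB1, and the probe that stands for CRYAB lacks it as well. Several HSPB8 probes overlap, and 3 of the 8 hold the same 28 bases, shown because these probes are not separate readings of the gene.
HSPB8, stretch common to 3 probes: GTGTGTGTCATTGTTTTTTGAATTGTGC

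After the mean of each breed and temperature group was removed, probes of the same gene moved together over the 26 arrays. Pearson's r was 0.97 between the HSPB1 probes, from 0.98 to 0.99 among the CRYAB probes and 0.73 between the HSPB6 probes. Among the 24 pairs of HSPB8 probes that shared fewer than 20 bases, r ranged from 0.87 to 0.99. HSPB2 and CRYAB lie next to each other in the pig gene table of assembly Sscrofa11.1 and their spans overlap, and whether the HSPB2 probe also reads CRYAB transcripts was not tested.

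The first question was whether heat stress changed these genes. None of the 17 member probes passed the test of HS minus TN (limma with breed as a fixed effect, Benjamini-Hochberg adjustment over 44703 probes, threshold 0.05), and none of the 6 genes had an unadjusted p under 0.05. Over all tested probes, 12.2% were called in the same comparison, 5.18% as higher and 7.02% as lower in HS. The median log2 change of the 6 genes was 0.13, with 0.0024 over all tested probes. It was 0.05 without Creole HS replicate 3 and 0.21 without Creole TN replicate 1. Of the 17 probes, 15 had a positive change, as had 50.7% of all tested probes. The 15 are not separate readings, because 8 of the 17 probes read HSPB8 and 3 read CRYAB. The changes of the genes ran from -0.05 for HSPB6 to 0.37 for HSPB8, and the arrays of the temperatures overlapped for every member. Over all tested probes, the arrays of TN and HS did not overlap for 0.0179%. Within breeds, no member had TN and HS arrays that did not overlap, as was so for 6.27% of all tested probes in Creole, 6.87% in F1 and 8.04% in LW.

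**Figure D1:**
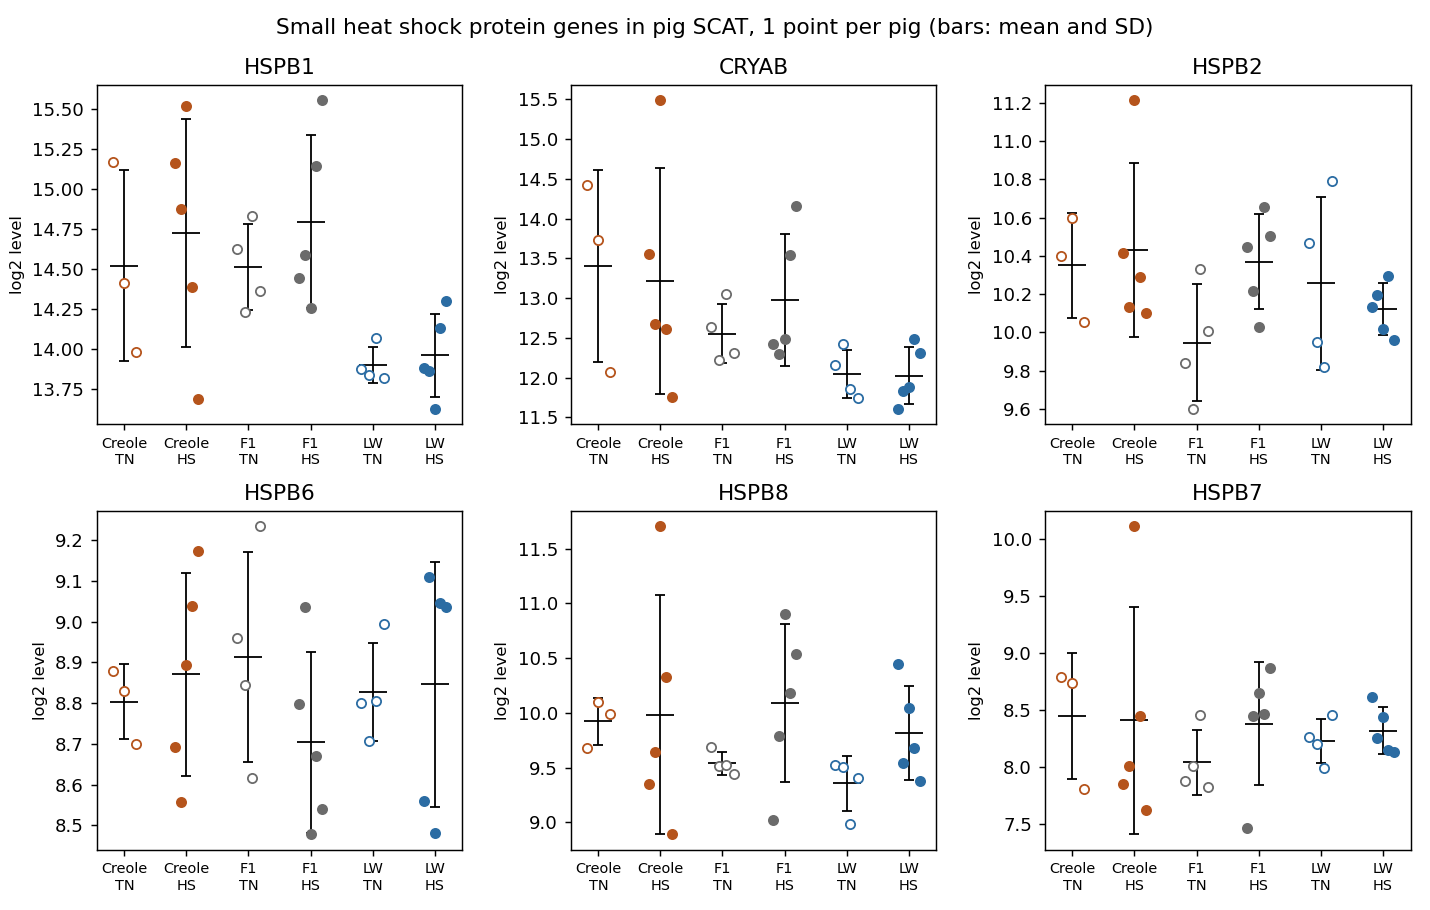
Log2 level (quantile-normalized intensity, y axis) of the 6 genes in each pig, by breed and temperature group (x axis); open points are TN, filled points HS, and bars give the mean and SD of 3 to 5 pigs. HS and TN pigs overlap for every gene, LW pigs lie low and close together for HSPB1 and CRYAB, and Creole HS replicate 3 is the top point for CRYAB, HSPB2, HSPB8 and HSPB7.

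HSPB1 was examined first. In Creole, its log2 level was 15.17, 14.41 and 13.99 in the TN pigs and 15.16, 14.88, 15.52, 14.39 and 13.69 in the HS pigs. In F1, it was 14.62, 14.23, 14.83 and 14.36 in TN and 14.44, 14.59, 14.26, 15.15 and 15.55 in HS. In LW, it was 13.88, 13.84, 14.07 and 13.82 in TN and 13.88, 13.87, 13.63, 14.13 and 14.30 in HS. HS and TN pigs overlapped within each breed, the HS pigs with the wider range, and 8 of 15 HS pigs were above the TN mean of their breed. The change was 0.18 ± 0.17 (SE, log2, adjusted p = 0.525 by limma), with a 95% confidence interval from -0.16 to 0.53. A rise larger than 0.53 lay outside the interval. Over all alternatives run, the change lay between 0.06 with processed intensities and 0.47 with the red blood cell marker score in the model, and it was 0.12 without Creole TN replicate 3 or F1 HS replicate 5. Within the 5 slides, the plain HS minus TN difference, not adjusted for breed, was 0.11, -0.49, -0.37, 0.78 and 0.68. The slides held unequal mixes of breeds at each temperature, so these values mix breed with heat stress. On the fifth slide, the HS pigs were Creole and F1 and the TN pigs were LW. With single arrays left out, the first slide ranged from -0.11 (Creole HS replicate 1) to 0.25 (F1 HS replicate 1), the second from -0.96 (F1 TN replicate 2) to -0.02 (Creole TN replicate 1) and the third from -0.62 (LW TN replicate 1) to -0.14 (F1 TN replicate 3). The fourth ranged from 0.55 (Creole HS replicate 3) to 0.96 (LW HS replicate 5) and the fifth from -0.25 (F1 HS replicate 5) to 1.61 (Creole HS replicate 5).

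CRYAB varied more than any other member. In Creole, its log2 level was 14.42, 13.73 and 12.07 in TN and 13.55, 12.67, 15.49, 12.62 and 11.76 in HS. In F1, it was 12.64, 12.23, 13.05 and 12.30 in TN and 12.42, 12.29, 12.48, 13.55 and 14.16 in HS. In LW, it was 12.16, 12.42, 11.86 and 11.75 in TN and 11.61, 11.83, 11.89, 12.49 and 12.31 in HS. From the lowest to the highest pig the intensity differed 14.7-fold, whereas the median tested probe spanned 1.77-fold. The CRYAB range was 6.99-fold without Creole HS replicate 3. The change with heat stress was 0.09 ± 0.31 (SE, log2, adjusted p = 0.892 by limma), with an interval from -0.55 to 0.72. Only 6 of 15 HS pigs were above the TN mean of their breed, and without Creole HS replicate 3 the change was -0.06. Within the 5 slides, HS minus TN without adjustment for breed was 0.12, -1.28, -0.69, 1.23 and 1.15. Because the breeds were spread unevenly over slides and temperatures, these differences mix breed with heat stress. These values rest on 1 to 4 arrays a side, and single arrays moved them. The first slide ranged from -0.28 without Creole HS replicate 1 to 0.35 without F1 HS replicate 2, and the second from -2.38 without F1 TN replicate 2 to -0.19 without Creole TN replicate 1. The third ranged from -1.11 without LW TN replicate 1 to -0.32 without Creole TN replicate 2, and the fourth from 0.56 without Creole HS replicate 3 to 1.62 without LW HS replicate 5. The fifth ranged from -0.05 without F1 HS replicate 5 to 2.35 without Creole HS replicate 5.

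HSPB8 had the largest change with heat stress among the 6 genes. In Creole, its log2 level was 9.68, 10.10 and 9.99 in TN and 9.35, 9.65, 11.71, 10.33 and 8.90 in HS. In F1, it was 9.69, 9.51, 9.52 and 9.44 in TN and 9.03, 9.79, 10.90, 10.18 and 10.54 in HS. In LW, it was 9.52, 9.51, 8.99 and 9.41 in TN and 10.45, 9.54, 10.05, 9.68 and 9.38 in HS. HS pigs reached above the TN pigs of their breed in all 3 breeds, and below them in Creole and F1. The change was 0.37 ± 0.23 (SE, log2, adjusted p = 0.305 by limma), 11 of 15 HS pigs were above the TN mean of their breed, and 6 were above the highest TN pig of any breed. The interval ran from -0.10 to 0.84. The other 7 HSPB8 probes had smaller changes, between 0.09 and 0.27, with adjusted p from 0.422 to 0.744 (limma). The change was 0.26 without Creole HS replicate 3. Within the 5 slides, the difference without adjustment for breed, and so mixed with breed, was -0.30, 0.28, 0.49, 0.75 and 0.52. With single arrays left out, the first slide ranged from -0.50 (F1 HS replicate 2) to -0.12 (F1 HS replicate 1). The second ranged from -0.0017 (LW HS replicate 1) to 0.45 (LW HS replicate 2) and the third from 0.15 (F1 HS replicate 3) to 0.76 (LW HS replicate 4). The fourth ranged from 0.32 (Creole HS replicate 3) to 1.09 (LW HS replicate 5) and the fifth from -0.30 (F1 HS replicate 5) to 1.34 (Creole HS replicate 5).

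The spread of HSPB8 differed between the temperatures, an observation made after its values were seen and described without a test. Around the means of the 3 breeds, the SD was 0.20 in TN and 0.80 in HS, a ratio of 4.01. This ratio was above that of 99.65% of tested probes, whose median ratio was 1.11. All 8 HSPB8 probes had more spread in HS than in TN, with ratios from 2.08 to 4.76. The SD in HS was 0.60 without Creole HS replicate 3. HSPB1, HSPB6, HSPB7 and CRYAB had ratios from 1.44 to 1.92, and HSPB2 had 0.85.

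HSPB2, HSPB6 and HSPB7 showed small changes. HSPB2, which binds the myotonic dystrophy kinase in muscle, had a median log2 level of 10.06 in TN (9.60 to 10.79) and 10.21 in HS (9.96 to 11.21). Its change was 0.12 ± 0.13 (SE, adjusted p = 0.575 by limma), or 0.07 without Creole HS replicate 3 and 0.20 without LW TN replicate 4. HSPB6, a target of protein kinase A that takes part in the relaxation of smooth muscle, had a median of 8.83 in TN (8.62 to 9.23) and 8.80 in HS (8.48 to 9.17). Its change was -0.05 ± 0.09 (SE, adjusted p = 0.782 by limma), or -0.07 without LW HS replicate 2 and -0.0039 without F1 TN replicate 4. HSPB6 was the least variable member: its range of 1.69-fold over the 26 pigs was within that of the median tested probe. HSPB7 had a median of 8.21 in TN (7.81 to 8.79) and 8.44 in HS (7.47 to 10.11), a change of 0.14 ± 0.20 (SE; adjusted p = 0.702, limma), or 0.03 without Creole HS replicate 3.

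**Figure D2:**
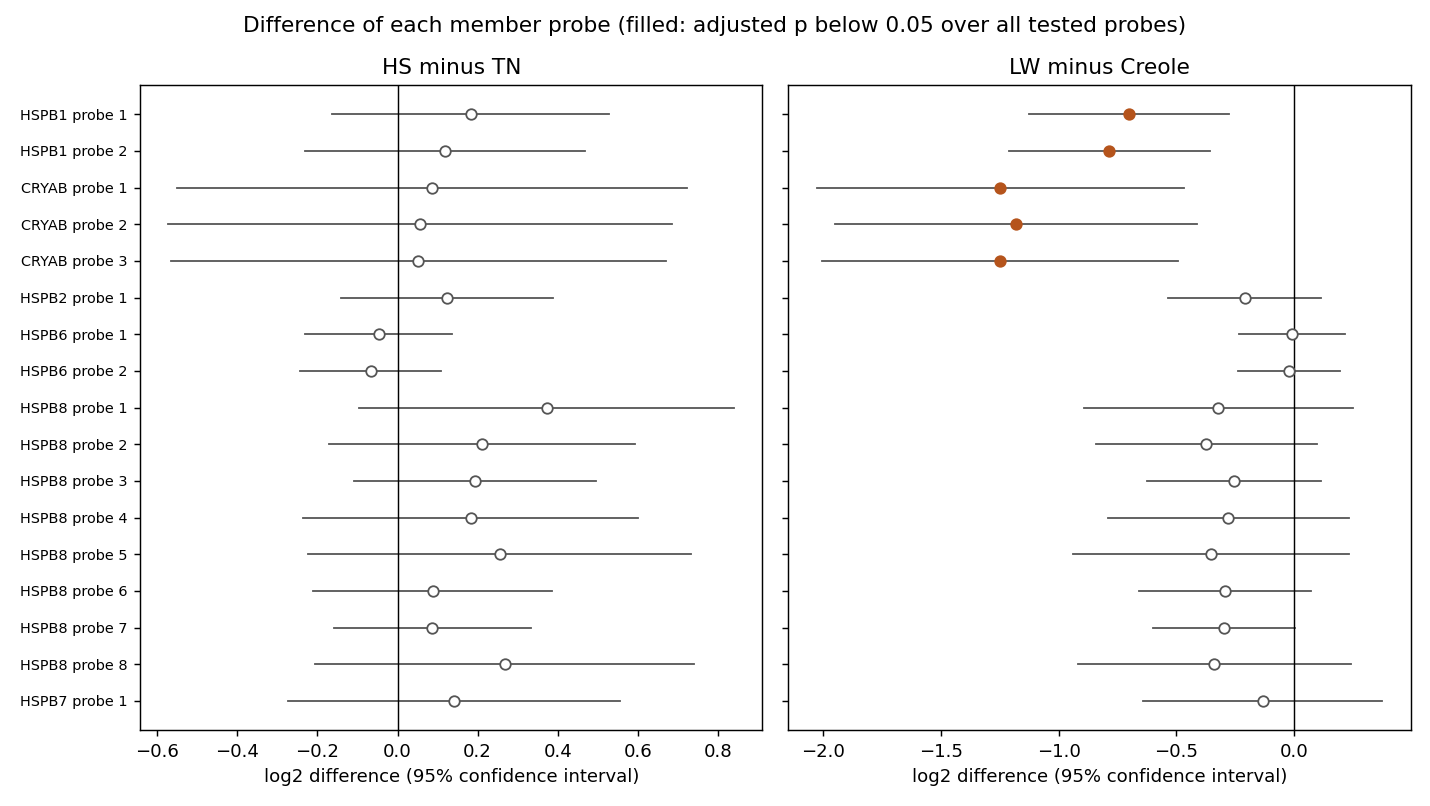
Log2 difference (x axis) of each of the 17 member probes (y axis), HS minus TN on the left and LW minus Creole on the right, with 95% confidence intervals from limma; filled points passed the adjusted threshold. All intervals of HS minus TN include 0, and the 5 filled points are the HSPB1 and CRYAB probes in LW minus Creole.

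The second question was whether the response to heat depended on breed. No member probe was called within Creole (0.0537% of all tested probes were), within F1 (0.421%) or within LW (1.52%). The median change of the 6 genes was 0.07 in Creole, 0.38 in F1 and 0.04 in LW. Single arrays moved these medians. That of Creole was -0.24 without Creole HS replicate 3 and -0.07 without Creole TN replicate 3, that of F1 was 0.17 without F1 HS replicate 5, and that of LW was -0.03 without LW HS replicate 5 and -0.0057 without LW HS replicate 4. The model moved them as well, with ranges over the alternatives that kept all arrays of 0.02 to 0.17 in Creole, 0.05 to 0.61 in F1 and -0.22 to 0.33 in LW. The F1 median was lowest with the smooth muscle and pericyte score in the model and highest with the red blood cell score, and that of LW lowest with the skeletal muscle score and highest with the red blood cell score. Within F1, the changes were 0.28 for HSPB1, 0.43 for CRYAB, 0.42 for HSPB2, 0.55 for HSPB8 and 0.34 for HSPB7, and -0.21 for HSPB6. Without F1 HS replicate 5, HSPB1 had 0.09, CRYAB 0.13 and HSPB7 0.22, and without F1 HS replicate 3, HSPB8 had 0.34. Single arrays also raised these changes. HSPB8 had 0.81 and HSPB7 0.57 without F1 HS replicate 1, CRYAB 0.60 without F1 HS replicate 2 and HSPB1 0.42 without F1 HS replicate 3. The smallest p of the 18 changes within breeds was that of HSPB2 in F1, at 0.0557 unadjusted and 0.327 adjusted (limma). HSPB2 was 9.84, 9.60, 10.33 and 10.01 in the F1 TN pigs and 10.45, 10.21, 10.03, 10.66 and 10.50 in the F1 HS pigs, so 1 TN pig lay among the HS pigs. The interaction of breed and temperature was called for none of the members and for 0.00224% of all tested probes, with adjusted p from 0.897 for HSPB2 to 0.98 for HSPB1 over the 6 genes (limma, moderated F test). The larger median in F1 was thus not shown to differ from that in the parent breeds.

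The third question was whether the breeds differed. All 17 member probes had a negative LW minus Creole difference, whereas 50.5% of all tested probes had a positive one. The 17 probes read only 6 genes, 8 of them HSPB8, and the difference was as small as -0.01 for HSPB6. Of the 17, 5 passed the test of LW minus Creole (limma with temperature as a fixed effect). They were both HSPB1 probes and all 3 CRYAB probes. Over all tested probes, 14.3% were called, 7.43% as lower and 6.89% as higher in LW. The median difference over the 6 genes was -0.27, with all tested genes that had a name at -0.0078, and was -0.10 without Creole HS replicate 3. No member had Creole and LW arrays that did not overlap, as was so for 0.687% of all tested probes.

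HSPB1 had a mean log2 level of 14.65 ± 0.63 (SD, n = 8) in Creole and 13.94 ± 0.20 (SD, n = 9) in LW, a difference of -0.70 ± 0.21 (SE; adjusted p = 0.0235, limma), or 0.614 times the Creole intensity. Of the 8 Creole pigs, 6 were above every LW pig, and Creole HS replicate 5, at 13.69, lay among the lowest LW pigs. The second HSPB1 probe differed by -0.78 (adjusted p = 0.0133, limma). In F1 pigs the mean was 14.67 ± 0.44 (SD, n = 9), and 7 of these 9 pigs were above every LW pig. The F1 mean lay 0.38 ± 0.17 (SE) above the mean of the parent breeds (adjusted p = 0.538, limma), in a comparison where 0.00671% of all tested probes and no member were called. F1 pigs therefore had HSPB1 levels near those of Creole, but the deviation from the parental mean did not pass.

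CRYAB had a mean of 13.29 ± 1.26 (SD, n = 8) in Creole, 12.79 ± 0.67 (SD, n = 9) in F1 and 12.04 ± 0.32 (SD, n = 9) in LW. LW minus Creole was -1.25 ± 0.38 (SE; adjusted p = 0.0284, limma), or 0.42 times the Creole intensity, and the other CRYAB probes gave -1.18 and -1.25. As for HSPB1, 6 of 8 Creole pigs were above every LW pig. F1 lay between the parents, 0.13 ± 0.32 (SE) from their mean (adjusted p = 0.937, limma). Within each temperature the CRYAB difference was -1.36 ± 0.61 (SE) at TN and -1.19 ± 0.51 at HS. That of HSPB1 was -0.62 ± 0.33 at TN and -0.77 ± 0.28 at HS. At TN, the values were -0.85 for CRYAB and -0.30 for HSPB1 without Creole TN replicate 1, and -2.03 and -0.89 without Creole TN replicate 3. At HS, they were -0.62 for CRYAB and -0.57 for HSPB1 without Creole HS replicate 3, and -1.56 and -1.02 without Creole HS replicate 5. Both genes thus had a negative difference at either temperature, and neither passed within 1 temperature alone (adjusted p from 0.0996 to 0.387, limma; 0.313% of all tested probes were called at TN and 5.65% at HS).

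These 2 calls rested on few Creole pigs. For HSPB1, leaving out Creole TN replicate 1, Creole HS replicate 1 or Creole HS replicate 3 gave adjusted p of 0.0573, 0.052 and 0.0569 (limma), with differences of -0.60, -0.64 and -0.59. For CRYAB, the same arrays and Creole TN replicate 2 gave 0.0688, 0.0507, 0.0601 and 0.0581 (limma). The CRYAB difference was then -1.05 without Creole TN replicate 1, -1.21 without Creole HS replicate 1, -0.94 without Creole HS replicate 3 and -1.17 without Creole TN replicate 2. Leaving out Creole HS replicate 5, the low pig, instead gave 0.00287 for HSPB1 and 0.00663 for CRYAB. The number of member probes called ranged from 1 to 6 when single arrays were removed. Over all tested probes, it ranged from 4825 to 8189. A block for slide left 3 member probes called, and HSPB1 then had a difference of -0.67 with an adjusted p of 0.0583 (limma). Within the slides that held both breeds, LW minus Creole was taken without adjustment for temperature. It was -1.15, -0.53, -0.56 and 0.25 for HSPB1 and -1.82, -1.55, -1.02 and 0.05 for CRYAB. The slide with the positive differences held Creole HS replicate 5 as its only Creole pig, and its LW pigs were all TN, so breed and temperature cannot be told apart there. The values of the slide with Creole HS replicate 3 (-0.56 and -1.02) were -0.12 for HSPB1 and 0.02 for CRYAB without that pig, and the CRYAB value of -1.82 was -0.95 without Creole TN replicate 1. The value of -1.55 had Creole TN replicate 2 as its only Creole pig.

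**Figure D3:**
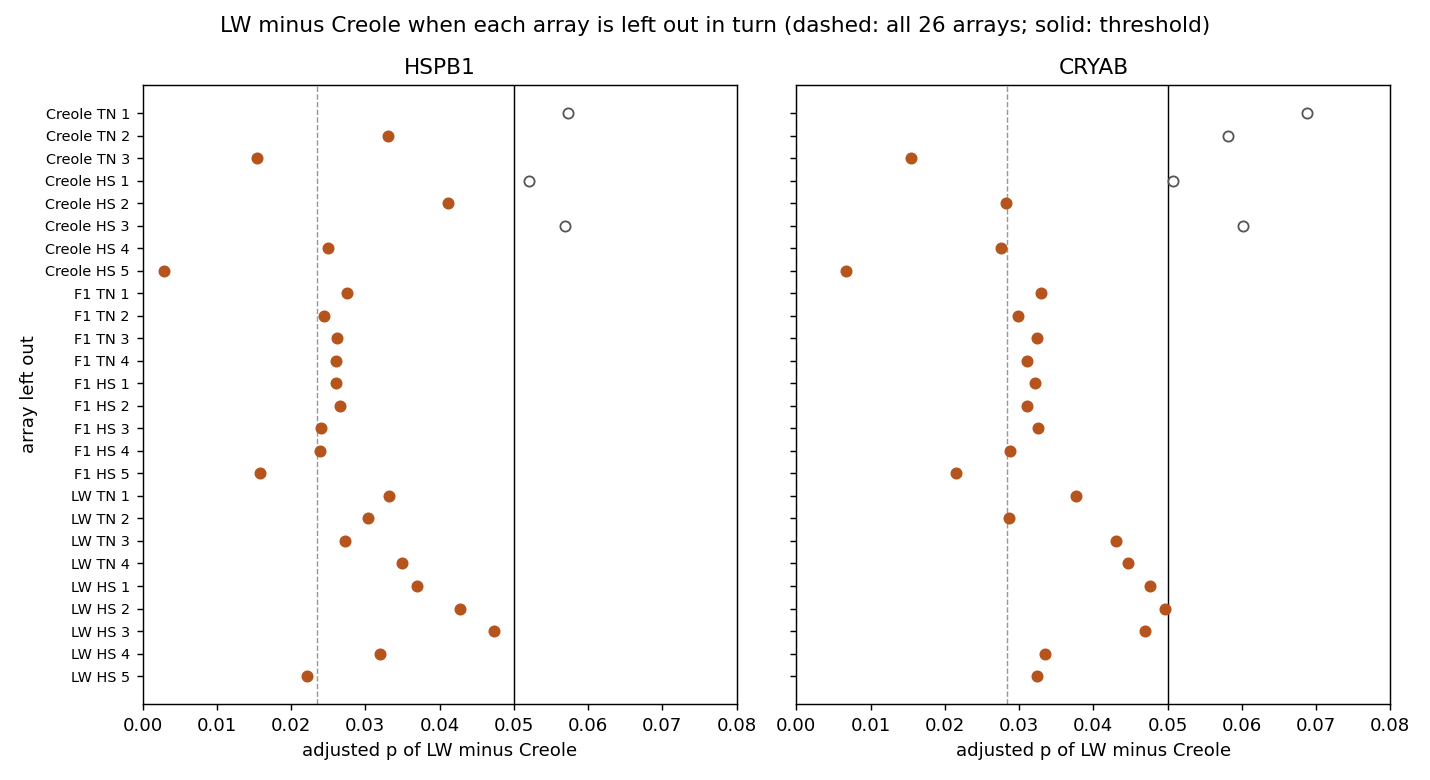
Adjusted p (x axis, limma) of LW minus Creole for the probes that stand for HSPB1 and CRYAB when each of the 26 arrays (y axis) was left out in turn; filled points stayed under the threshold of 0.05 (solid line) and the dashed line is the value with all arrays. Only Creole arrays moved a point past the threshold, 3 for HSPB1 and 4 for CRYAB.

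Markers of other cell types differed between the breeds as well. Of 27 tested skeletal muscle markers, 26 had a negative LW minus Creole difference, with a median of -0.79, and none was called. The mean muscle score was 0.77 lower in LW (-0.77), or -0.48 without Creole HS replicate 3. The brightest were ACTA1 (skeletal actin) and MYLPF (a fast myosin light chain). Their score ranged from -1.05 to 2.49 in Creole and from -1.80 to 1.41 in LW. When this score was added to the model, none of the 17 member probes was called in LW minus Creole. Over all 44703 tested probes, the number called fell from 6403 to 3733 with the score in the model. The difference was then -0.57 for HSPB1 (adjusted p = 0.0883, limma) and -0.91 for CRYAB (adjusted p = 0.113, limma). The part of muscle tissue in these differences was otherwise not tested. The adipocyte score did not overlap between the breeds, from 0.03 to 0.39 in Creole and from -0.32 to 9e-04 in LW, with 2 of 8 markers called, both lower in LW. All 10 fibroblast markers had a positive difference, with a median of 0.40, and 6 were called higher in LW. After group means were removed, r with the fibroblast score was -0.43 for CRYAB and -0.35 for HSPB1, and with the adipocyte score 0.53 and 0.45. Without Creole HS replicate 3, these were -0.34 and -0.26, and 0.28 and 0.29. The part of adipocytes and fibroblasts in these differences was not tested.

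The remaining members differed less between the breeds. LW minus Creole was -0.32 ± 0.28 (SE; adjusted p = 0.475, limma) for HSPB8, -0.21 ± 0.16 (adjusted p = 0.4) for HSPB2, -0.13 ± 0.25 (adjusted p = 0.766) for HSPB7 and -0.01 ± 0.11 (adjusted p = 0.962) for HSPB6. With the muscle score in the model, HSPB8 and HSPB7 changed sign, to 0.04 and 0.13. Without Creole HS replicate 3, HSPB8 was -0.09, HSPB2 was -0.10 and HSPB7 was 0.10. Other arrays moved them the other way: HSPB8 was -0.49 and HSPB7 -0.25 without Creole HS replicate 5, and HSPB2 was -0.29 without LW TN replicate 4.

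The spread within breeds was also described. Around the means of the temperatures, the SD of CRYAB was 1.35 in Creole, 0.67 in F1 and 0.34 in LW. HSPB7 had 0.87, 0.45 and 0.20, HSPB1 had 0.68, 0.44 and 0.21, and HSPB8 had 0.90, 0.55 and 0.36. With all arrays the order was Creole, F1, LW in these 4 genes. The ratio of the Creole to the LW SD was 3.99 for CRYAB, above that of 99.11% of tested probes, and 4.37 for HSPB7, above 99.37%, where the median tested probe had 1.08. HSPB2 had 1.29 and HSPB6 had 0.88. Without Creole HS replicate 3 the Creole SD was 0.95 for CRYAB, 0.63 for HSPB1, 0.44 for HSPB7 and 0.48 for HSPB8. The last 2 were below the F1 values, so Creole led without this pig only for CRYAB and HSPB1. The limma model gives all groups of a probe 1 common variance.

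Within groups, several members moved together. After group means were removed, Pearson's r over the 26 arrays was 0.88 between HSPB1 and CRYAB and 0.86 between HSPB7 and HSPB8. CRYAB was also correlated with HSPB7 (r = 0.75), with its neighbour HSPB2 (r = 0.65) and with HSPB8 (r = 0.52). HSPB2 had r = 0.62 with HSPB7, and HSPB1 had r = 0.55 with HSPB7 and 0.51 with HSPB2. HSPB6 stood apart, with r from -0.33 to 0.09 with the other members (-0.48 to 0.10 without Creole HS replicate 3). Without Creole HS replicate 3, HSPB1 with CRYAB stayed at 0.88 and HSPB7 with HSPB8 fell to 0.71. The values for CRYAB with HSPB7, HSPB2 and HSPB8 were then 0.51, 0.43 and 0.14, that of HSPB2 with HSPB7 was 0.33, and those of HSPB1 with HSPB7 and HSPB2 were 0.39 and 0.36. All points share the same hybridisations, and the values are descriptions.

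**Figure D4:**
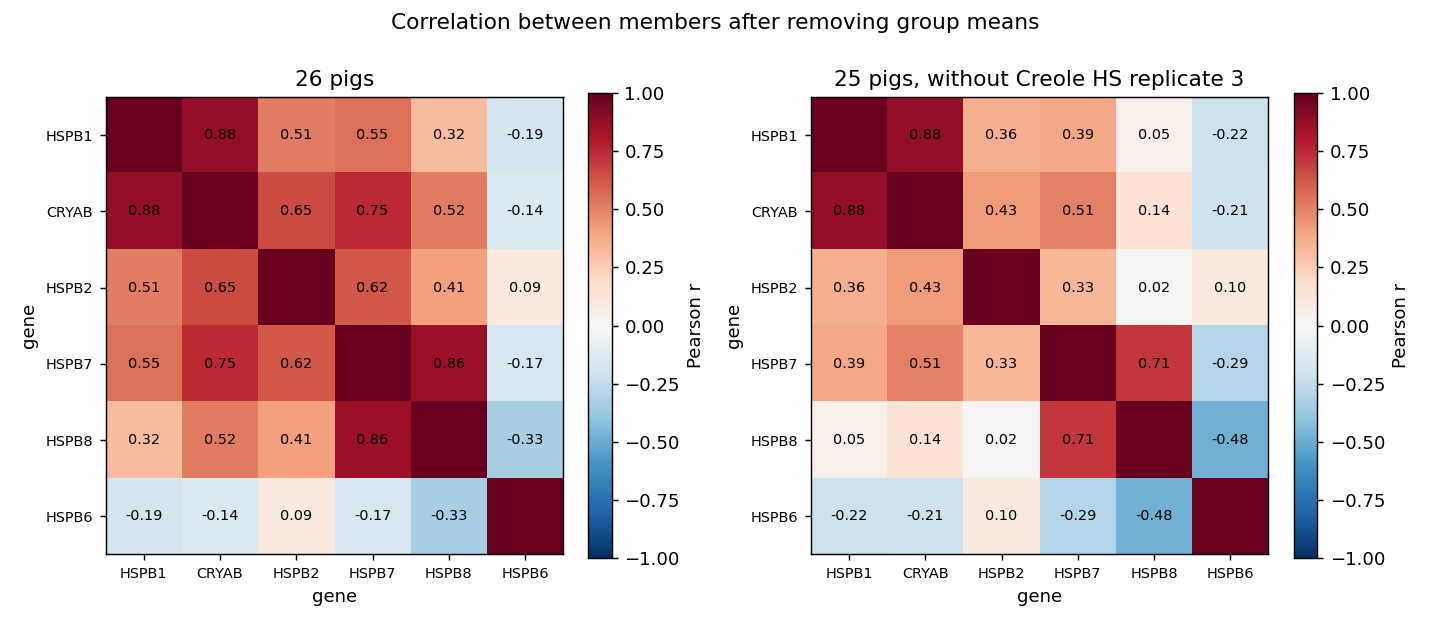
Pearson's r between the 6 genes after the means of the 6 breed and temperature groups were removed, over 26 pigs (left) and over 25 pigs without Creole HS replicate 3 (right); colour and number give r. The HSPB1 and CRYAB pair has 0.88 in both panels, and HSPB6 has values from -0.33 to 0.09 on the left.

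Among all tested genes that had a name, those whose pattern was most like each member were found by the same measure. HSPB1 was most like HSPE1, the mitochondrial co-chaperonin (r = 0.91), CRYAB (r = 0.88) and UQCR10, a subunit of respiratory complex III (r = 0.87), and least like NGLY1, an enzyme that removes sugars from misfolded proteins (r = -0.89). CRYAB was most like HSPB1, DIO1 (r = 0.87), a deiodinase of thyroid hormone, and ATP6V0E1 (r = 0.87), a subunit of the vacuolar proton pump, and least like TMEM18 (r = -0.87). DIO1 was dim, with a mean log2 level of 5.59 against 12.68 for CRYAB. Without Creole HS replicate 3, r with CRYAB was 0.77 for DIO1, 0.81 for ATP6V0E1 and -0.83 for TMEM18. HSPB7 was most like SRPK3 (r = 0.88), a kinase of muscle, DES (r = 0.88), the muscle intermediate filament desmin, and PDLIM3 (r = 0.86), a protein of the Z-disc, and least like FANCI (r = -0.81). HSPB8 was most like MYBPH (r = 0.86), a myosin-binding protein, ANKRD1 (r = 0.86), a stress-responsive muscle protein, and HSPB7, and least like MET (r = -0.83). Without Creole HS replicate 3, the genes most like HSPB7 and HSPB8 had r between 0.64 and 0.76. HSPB2 was most like IPO13, IMP3 and GLCE (r from 0.88 to 0.89) and least like DNTTIP1 (r = -0.88). HSPB6 was most like POLR3GL, SAMD8 and ELMO3 (r from 0.75 to 0.79) and least like RAN (r = -0.83).

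The muscle marker score was correlated with some members. After group means were removed, r with this score was 0.78 for HSPB8, 0.66 for HSPB7, 0.57 for CRYAB and 0.44 for HSPB1, and 0.18 for HSPB2 and -0.25 for HSPB6. Without Creole HS replicate 3 it was 0.64 for HSPB8, 0.43 for HSPB7, 0.32 for CRYAB, 0.27 for HSPB1 and -0.24 for HSPB2. HSPB8 thus followed the muscle markers most closely of the 6 genes, with and without this pig. HSPB7 and HSPB2 had r of 0.56 and 0.58 with the score of the smooth muscle and pericyte markers. With the adipocyte score, r was 0.63 for HSPB7, 0.61 for HSPB2 and 0.53 for CRYAB, and 0.39, 0.43 and 0.28 without Creole HS replicate 3. With the red blood cell score, r was 0.44 for HSPB1, 0.42 for CRYAB and 0.41 for HSPB2, and 0.40, 0.38 and 0.35 without that pig. With the Schwann cell score, r ranged from 0.05 for HSPB8 to 0.20 for HSPB2. The endothelial score had r = 0.49 with HSPB6, -0.31 with HSPB1 and -0.15 with CRYAB, and 0.50, -0.47 and -0.41 without that pig.

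**Figure D5:**
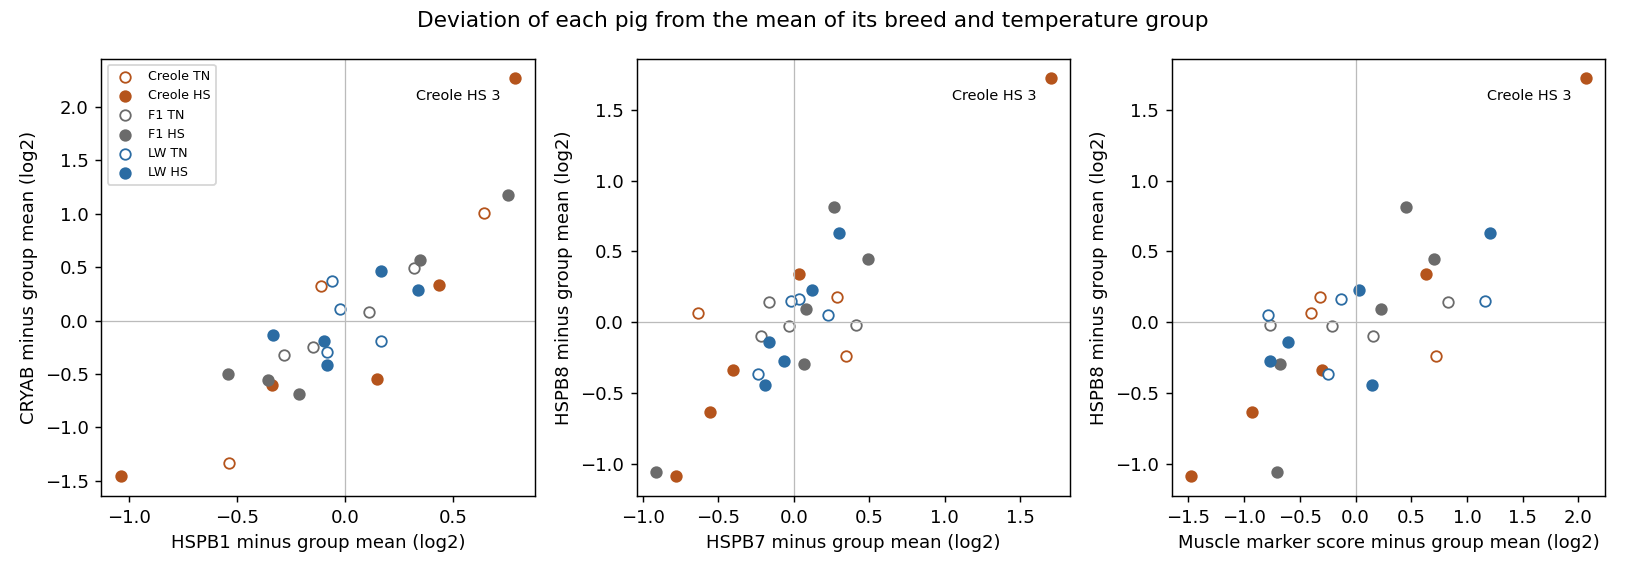
Deviation of each of the 26 pigs from the mean of its breed and temperature group, in log2 units, for CRYAB against HSPB1 (left), HSPB8 against HSPB7 (middle) and HSPB8 against the score of 27 skeletal muscle markers (right); open points are TN and filled points HS. The points rise together in each panel (r = 0.88, 0.86 and 0.78), with Creole HS replicate 3 at the upper right.

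Scores of 9 lists of cell markers were compared between the temperatures by permuting the labels within breeds (two-sided permutation test, 100000 resamples, adjusted over the 9 lists). The skeletal muscle score was 0.37 higher in HS (permutation p = 0.322, adjusted p = 0.367), with 25 of 27 markers positive and none called. It was 0.24 without Creole HS replicate 3, and by breed 1.23 in LW, -0.15 in F1 and -0.04 in Creole (-0.55 in Creole without that pig). The Schwann cell score was 0.31 higher (adjusted p = 0.00108) and the fibroblast score 0.26 higher (adjusted p = 0.0214), whereas the red blood cell score was 0.32 lower (adjusted p = 0.0068). The smooth muscle and pericyte (0.07), adipocyte (-0.07), endothelial (-0.03), macrophage (0.14) and keratinocyte (1.09) scores had adjusted p from 0.279 to 0.596 (permutation test). The brightest markers were S100B and SOX10 for Schwann cells, COL1A1 and COL3A1 for fibroblasts, SLC4A1 and HBB for red blood cells, ACTA2 and MYLK for smooth muscle and pericytes, CLDN5 and PECAM1 for endothelium, C1QB and C1QA for macrophages, and SFN and KRT5 for keratinocytes.

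The pathways around the small heat shock proteins were described by lists that had been fixed by gene name, with 1 probe per gene. In HS minus TN, 12.6% of all tested genes that had a name were called, and in LW minus Creole 15.3%. None of the 14 tested heat-inducible chaperones was called in HS minus TN, with a median change of -0.02, and 8 of the 14 had a negative change. HSP90AA1, an inducible cytosolic chaperone and the one with the smallest p in this comparison, had 0.27 ± 0.12 (SE; adjusted p = 0.132, limma), and HSPH1, of the Hsp110 family, had -0.27 ± 0.12 (adjusted p = 0.149). Both were named after their values were seen. None of the 4 tested heat shock factor genes was called in either comparison, and HSF1 itself had a change of -0.0073 with heat stress. The inducible chaperones as a list thus had no call with heat stress either.

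Between the breeds, 5 of the 14 chaperones were called. HSPA4, a nucleotide exchange factor for Hsp70, was lower in LW by -0.85 ± 0.16 (SE; adjusted p = 0.00128, limma). HSPD1, the mitochondrial chaperonin, was lower by -0.34 ± 0.07 (adjusted p = 0.00418), HSPA1L, an Hsp70, by -0.38 ± 0.10 (adjusted p = 0.0113) and AHSA1, an activator of Hsp90, by -0.27 ± 0.09 (adjusted p = 0.0447). CHORDC1, an Hsp90 co-chaperone, was higher by 0.48 ± 0.12 (adjusted p = 0.00766). The median of the 14 was -0.16.

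The 3 lists of partners of the small heat shock proteins held between 1 and 3 called genes each in either comparison, to be read against the shares of 12.6% with heat stress and 15.3% between breeds. In the list of BAG3 and chaperone-assisted autophagy, 1 of 12 tested genes was called in each comparison: DNAJB6, a co-chaperone against aggregation, fell by 0.19 with heat stress (adjusted p = 0.0332, limma), and STUB1, the ubiquitin ligase of this route, was lower in LW by 0.27 on the log2 scale (-0.27; adjusted p = 0.00775). BAG3, the partner of HSPB8, had -0.15 ± 0.08 with heat stress (adjusted p = 0.227). Of 12 tested kinases that act on the family, MAPKAPK5 fell by 0.23 with heat stress (adjusted p = 0.0246). PRKACB, a catalytic subunit of protein kinase A, had a higher level in LW, by 0.51 (adjusted p = 0.00459). Of 18 tested genes of intermediate filaments and the actin cytoskeleton, SYNM (synemin, 0.41, adjusted p = 0.0168) and ACTB (actin, 0.14, adjusted p = 0.0215) rose with heat stress. In LW, ZYX (zyxin, 0.37, adjusted p = 0.0229) and MYL9 (a myosin light chain, 0.37, adjusted p = 0.0413) were higher and CAPZA1 (an actin cap, -0.19, adjusted p = 0.00805) was lower than in Creole. Of the further small heat shock proteins, HSPB3 was well above background on 3 of 26 arrays and ODF1 on 0, and neither was tested.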

How the data were processed

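RNA of 26 SCAT samples was hybridised by the authors to one-colour Agilent porcine arrays and read with Feature Extraction 10.10.1.1. The deposited scanner files give median, mean, background and processed intensity per spot, not normalized between arrays. The deposited series matrix holds log2 values of quantile-normalized intensity and served as an alternative. Median intensities were quantile-normalized without background correction, set to log2, and averaged by probe in R 4.3.3. Non-uniform spots (up to 16 per array) were set to missing. A probe entered the test when 8 or more arrays flagged it well above background. The test was limma 3.58.1 (lmFit, eBayes with intensity trend) with Benjamini-Hochberg adjustment over 44703 probes, at a threshold of 0.05. The fit was also run on simulated data with known changes. Symbols came from accessions, locus numbers, symbols and synonyms matched to a pig gene table. The random effects of pen, slaughter day and family in the study's model are not in the labels and were left out. P-values measure the spread between these pigs, and the number of arrays limits the precision.

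Members and lists were chosen with earlier results of these data known. Named genes were every member, up to 5 genes per list with the smallest p where a list had a call, the 3 most and 1 least correlated gene per member, and the 2 brightest markers per cell type. Alternatives were normexp background correction with offset 50, processed intensity scaled to its 75th percentile, the series matrix, other filters, the mean of a gene's probes, slide, marker scores or array weights in the model, no breed term, and each array left out.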

Additional observations from a re-analysis of the deposited data

Results flagged for a closer look

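HSPB2 in Creole HS replicate 3 stood at a log2 level of 11.21, whereas the nearest of the other 4 Creole HS pigs was at 10.41. This gap was 0.719 of the range of the group, which is beyond Dixon's 95% critical value for 5 values. Among the 30 sets of 4 or 5 arrays examined over the 6 genes, it was the only array beyond that value, and chance gives about 1 in 20. The same pig was the highest of its group for HSPB1, CRYAB, HSPB7 and HSPB8, without passing that limit, and had the highest skeletal muscle score of the 26 arrays, 2.49.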

How the results depend on the processing

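No member probe was called in HS minus TN under any of the 39 alternatives run for that count. In LW minus Creole, 5 member probes were called with all arrays, 3 with the slide as a block, 0 with the skeletal muscle score as a covariate, and from 1 to 6 with single arrays left out. HSPB1 then ranged from -0.85 to -0.59 and CRYAB from -1.47 to -0.94. Of the CRYAB probes, A_72_P386858 lost its call without any 1 of 9 arrays, whereas the second HSPB1 probe kept its call without each of the 26. Some member values changed sign, and the cause was not tested. In HS minus TN, CRYAB was -0.006 with processed intensities scaled to the 75th percentile, -0.0815 with the skeletal muscle score, -0.1255 with the Schwann cell score, -0.051 with the smooth muscle and pericyte score (an alternative chosen after seeing the data), and from -0.0644 to 0.23 with single arrays left out, but 0.5556 with the red blood cell score (0.0863 in the model as reported). The median of the 6 genes ranged from -0.0031 with the Schwann cell score to 0.3856 with the red blood cell score. HSPB7 was -0.0431 with the Schwann cell score. In F1, HSPB7 was -0.1128 and CRYAB -0.0502 with the smooth muscle and pericyte score, against 0.3381 and 0.4251 as reported. In LW minus Creole, HSPB6 was 0.0316 with the slide, 0.0179 with the smooth muscle and pericyte score, 0.0096 with array weights and from -0.0505 to 0.0381 with single arrays left out. HSPB8 was 0.0388 and HSPB7 0.1258 with the skeletal muscle score, and HSPB7 ranged from -0.2539 to 0.0977 with single arrays left out. The adipocyte score passed an unadjusted 0.05 with processed intensities, at -0.1499 (permutation p = 0.0171). With single arrays left out, the adipocyte score ranged from -0.0876 to -0.0539, the smooth muscle and pericyte score from 0.0379 to 0.1342 and the keratinocyte score from 0.8097 to 1.4701. They too passed it without 1 array each, namely Creole HS replicate 3 (permutation p = 0.0439), Creole TN replicate 2 (permutation p = 0.0298) and LW TN replicate 1 (permutation p = 0.0448). Over all tested probes, HS minus TN called 5452 probes, 3531 without the breed term, 362 with the Schwann cell score and 528 with the red blood cell score. LW minus Creole called 6403 probes, 3733 with the skeletal muscle score and 4179 with the Schwann cell score. The counts within breeds ranged from 0 to 178 in Creole, 0 to 500 in F1 and 7 to 2315 in LW over the alternatives, those of the interaction from 0 to 4 and those of F1 minus the mid-parent from 0 to 51. No paired analysis was possible because TN and HS pigs were different animals and the labels do not give family or pen. The number of arrays limits precision, most of all for the 3 Creole TN pigs.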
